A study of Mus musculus with 2 samples.

Results

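Ccl8-positive macrophages were the cells with at least 3 Ccl8 molecules within a gate for macrophages that were neither dividing nor strongly activated by interferon. They numbered 287 of 7005 barcodes in 2 single-cell RNA libraries of CD45+ cells from mouse tumours, 212 responder and 75 non-responder cells. A cell was kept with at least 500 genes and at most 10% mitochondrial molecules. The gate then asked for at least 1% of molecules from C1qa, C1qb and C1qc, the chains of the complement protein C1q, which mark macrophages. It also asked for no Cd3d, Cd3e, Cd3g, Mki67, Top2a or Nos2 molecule, under 10 Cxcl9 molecules, and under 20 molecules from Ifit1, Ifit2, Ifit3, Cmpk2, Rsad2 and Oasl1 together. A molecule was counted as a unique molecular identifier (UMI). The gate held 1857 responder and 1251 non-responder cells, and those with no Ccl8 UMI, 1340 responder and 1086 non-responder cells, are called Ccl8 = 0 cells. The cells were thus chosen by their measured counts of Ccl8 and of the gate genes. The Ccl8 level in them is a description, and no test was made between the classes.

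Ccl8, also called MCP-2, is a secreted CC chemokine that draws monocytes and other leukocytes. In the mouse its best-known receptor is Ccr8, and its gene lies beside those of Ccl2, Ccl7 and Ccl12, which act largely through Ccr2. Tissue macrophages of the kind that carries the mannose receptor Mrc1 and the folate receptor Folr2 are known to make Ccl8, whereas macrophages that have just arisen from blood monocytes still carry Ccr2 and Ly6c2. The nuclear receptor LXRα, encoded by Nr1h3, responds to oxidised cholesterol and induces transporters such as Abca1 and lipid carriers such as Apoe and Pltp.

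The responder library came from C57BL/6 mice with a subcutaneous MC38-GFP tumour that the labels call a responder to an antibody against PD-1, an inhibitory receptor of T cells. The non-responder library came from the same strain, tumour and treatment, labelled as a non-responder. MC38-GFP is a mouse colon adenocarcinoma line with green fluorescent protein, 50000 cells were inoculated, and the antibody was given at a sub-optimal 100 ug on days 12, 15, 18 and 22. The number of mice behind each library was not given, and the bulk RNA of the sorted tumour cells was not used here. The responder library held 4425 barcodes and 45866561 UMIs, with a median of 10000 UMIs, and the non-responder library 2580 barcodes and 32032569 UMIs, with a median of 11729. Of all barcode sequences, 14 occurred in both libraries, and 1 of them was a Ccl8-positive cell of the responder library. With 1 library for each response there was no replicate check between them, and brackets give 95% intervals for counting error only.

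Promoter windows of RefSeq on GRCm38.p6, from 250 bases before to 50 after a transcription start, are shown for Ccl8, Cbr2 and Folr2. Cbr2 and Folr2 ranked first as higher in Ccl8-positive cells, by the ratio nearer to 0 of the libraries. Capitals mark TGCTGA, the core of the site bound by MAF-type factors, on either strand (TCAGCA on the other), TATAAA, and GAGGAAG, a site type of the myeloid factor PU.1 (CTTCCTC on the other strand). Ccl8 lies at chr11:82114935-82115234 on the plus strand, Cbr2 at chr11:120731972-120732271 and Folr2 at chr7:101857141-101857440, both on the minus strand.
Ccl8: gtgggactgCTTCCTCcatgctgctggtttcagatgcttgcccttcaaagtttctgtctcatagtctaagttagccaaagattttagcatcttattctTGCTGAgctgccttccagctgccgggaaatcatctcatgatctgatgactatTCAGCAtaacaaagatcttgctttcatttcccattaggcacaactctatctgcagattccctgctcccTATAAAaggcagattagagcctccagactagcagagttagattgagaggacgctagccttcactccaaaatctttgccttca
Cbr2: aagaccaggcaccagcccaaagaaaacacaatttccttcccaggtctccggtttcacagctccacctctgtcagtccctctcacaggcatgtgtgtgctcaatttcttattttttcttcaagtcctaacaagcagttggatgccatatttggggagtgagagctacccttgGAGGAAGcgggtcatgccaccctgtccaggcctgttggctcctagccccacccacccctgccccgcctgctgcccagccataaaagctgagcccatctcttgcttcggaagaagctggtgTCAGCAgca
Folr2: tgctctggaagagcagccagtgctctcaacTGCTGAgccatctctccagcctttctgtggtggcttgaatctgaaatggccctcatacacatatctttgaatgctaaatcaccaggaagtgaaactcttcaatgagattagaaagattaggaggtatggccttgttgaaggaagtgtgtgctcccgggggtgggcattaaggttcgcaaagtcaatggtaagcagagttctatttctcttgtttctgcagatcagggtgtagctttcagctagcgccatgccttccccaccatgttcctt
The Ccl8 window held TGCTGA at position -152 from the start and again on the other strand at -100, TATAAA at -32 and GAGGAAG on the other strand at -241. In the Cbr2 window TGCTGA stood on the other strand at 41 and GAGGAAG at -79. The Folr2 window had TGCTGA at -220, and a window at another Folr2 start had it at -19. These matches describe letters and not binding. TGCTGA was present in 21.7% of 27025 genes with such windows. It was in 4 of the 9 genes ranked first as higher in Ccl8-positive cells that had an entry, among them Cbr2 and Folr2. Of the 13 genes ranked first as lower that had an entry, 2 had it. TATAAA was in 15.7% of genes, in 2 of the 9 and in 5 of the 13. GAGGAAG was in 15.4% of genes, in 2 of the 9 and in 4 of the 13. The others searched on both strands were the interferon element with GAAA and again GAAA 2 bases on, in 3.99% of genes, the NF-kB site with GGGA and CC 4 bases apart, in 22.9%, and the LXR repeat with AGGTCA and again AGGTCA 4 bases on, in 0.0148%. The Ccl8, Cbr2 and Folr2 windows held none of these last 3 motifs. Of the 9 higher genes, 1 held the interferon element, 2 the NF-kB site and 0 the LXR repeat. Of the 13 lower genes, 1, 5 and 0 did. These counts were not tested.

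Ccl8 RNA was concentrated in few cells. Ccl8-positive cells made up 11.4% [10.0 to 13] of the responder gate and 6.00% [4.74 to 7.46] of the non-responder gate. Cells with 1 or 2 Ccl8 UMIs, left out of both classes, numbered 305 responder and 90 non-responder cells. Just inside the limit, at 3 UMIs, were 36 responder and 19 non-responder cells, and just outside it, at 2 UMIs, were 65 responder and 20 non-responder cells. Responder positive cells had a median of 8.5 and a maximum of 488 Ccl8 UMIs, against a median of 5 and a maximum of 78 in the non-responder library. The 10 cells with the most Ccl8 held 30.4% of the 3666 Ccl8 UMIs of the responder class and 47.6% of the 761 of the non-responder class. Positive cells were slightly deeper than Ccl8 = 0 cells, with median UMIs of 9852.5 against 8943.5 in responder and 12263 against 11275.5 in non-responder cells. With every cell thinned to 3000 UMIs, 16.7% of responder and 7.28% of non-responder macrophages kept a Ccl8 UMI.

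**Figure D1:**
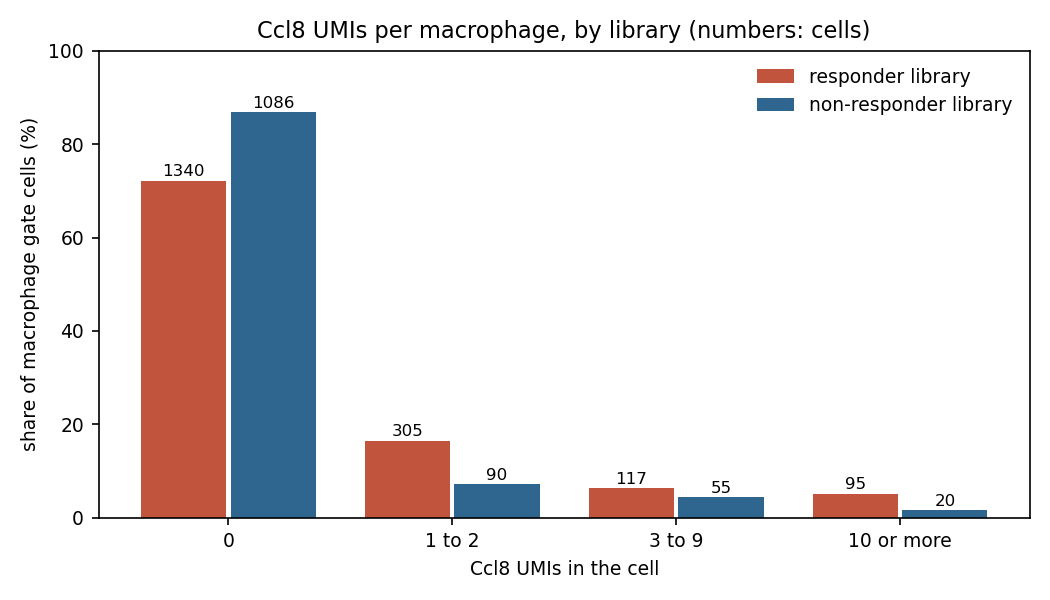
Share of the macrophage gate (%, vertical axis) by number of Ccl8 UMIs in the cell, for the responder and the non-responder library, with the number of cells above each bar. At 10 or more UMIs stood 95 responder and 20 non-responder cells.

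T cells were used to look for free Ccl8 RNA in droplets. They were chosen with under 0.1% of UMIs from C1q, which leaves out droplets rich in free macrophage RNA. They were also shallower than the macrophages. A Ccl8 UMI was found in 3 of 48 responder T cells (6.25%, median 3922 UMIs) and in 1 of 59 non-responder T cells (1.69%, median 5088 UMIs), never more than 1 UMI in a cell. After thinning, the T cell shares were 4.65% in the responder library and 0 of 59 in the non-responder library, where the exact upper bound is 6.06%. The limit of 3 UMIs thus lay above every T cell so chosen, which does not bound the free RNA in macrophage droplets. The gate took only part of the Ccl8-rich cells: of 639 responder and 130 non-responder cells with 3 or more UMIs, 427 responder and 55 non-responder cells failed another criterion. Cxcl9 at 10 or more UMIs applied to 287 responder and 4 non-responder cells, and a Mki67 or Top2a UMI to 180 responder and 37 non-responder cells. Positive cells held 28.9% of all Ccl8 UMIs of the filtered responder cells and 50.8% of those of the non-responder cells.

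The cells carried the RNA of macrophages. All 10 macrophage markers were present, and all 10 had a higher level in counts per 1e6 UMIs of the class sum (CPM) in Ccl8-positive than in Ccl8 = 0 cells of both libraries, with median log2 ratios of 0.27 in responder and 0.23 in non-responder cells. Of all genes compared below, 55% had a higher level in responder and 56.4% in non-responder Ccl8-positive cells. Lyz2, which encodes lysozyme, stood at 9389 CPM in Ccl8-positive and 7680.2 CPM in Ccl8 = 0 cells of the responder library, and at 17061 and 13096 CPM in those of the non-responder library. Of the other genes named with this population, Pltp and Nr1h3 were past 1.5-fold higher in both libraries, and C3 and Dnase1l3 in neither. C3, the central complement protein, was at 65.7 CPM in Ccl8-positive and 51.8 CPM in Ccl8 = 0 cells of the responder library, log2 ratio 0.34 [0.07 to 0.61], and at 11.4 and 9.47 CPM in the non-responder library, log2 ratio 0.27 [-0.77 to 1.16]. Dnase1l3, a secreted nuclease, was at 36.1 and 36.8 CPM in the responder library, log2 ratio -0.02 [-0.39 to 0.33], and had 1 UMI in the non-responder Ccl8-positive cells, log2 ratio -1.22 [-6.57 to 1.37]. Both genes differed more between the libraries than between the classes, with a log2 ratio of 2.53 [1.64 to 3.56] for C3 and 5.12 [2.60 to 10.45] for Dnase1l3, responder over non-responder Ccl8-positive cells.

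Markers of other cells were low in both classes beside those of macrophages. The macrophage markers summed to 37027 CPM in responder and 39910 CPM in non-responder positive cells. Summed over the fibroblast list, Ccl8-positive cells had 12.2 CPM against 5.30 CPM in Ccl8 = 0 cells of the responder library, and 4.15 against 5.86 CPM in the non-responder library, with Col1a1 and Pdgfrb at 0 in the positive cells of both. The dendritic sum was 14.6 against 16.1 CPM in responder and 4.15 against 3.61 CPM in non-responder cells, and the tumour epithelial sum 2.82 against 4.37 CPM in responder and 1.04 against 3.13 CPM in non-responder cells. The NK sum was 0.94 against 1.18 CPM in responder and 0 against 0.80 CPM in non-responder cells, and no mast cell marker had a UMI in the positive cells. Endothelial markers summed to 50.7 CPM in positive against 44.1 CPM in Ccl8 = 0 responder cells and to 20.7 against 10.1 CPM in non-responder cells, with Pecam1, which leukocytes also express, at 45.1 CPM in responder and 9.33 CPM in non-responder positive cells. Neutrophil markers summed to 33.8 CPM in positive against 28.6 CPM in Ccl8 = 0 responder cells and to 71.6 against 63.0 CPM in non-responder cells. Csf3r made up 32.9 CPM of the responder positive sum. B cell markers summed to 81.2 against 73.4 CPM in responder and 15.6 against 24.3 CPM in non-responder cells. In the positive cells of both libraries the B cell sum was Cd79b alone. T cell markers summed to 6.57 against 7.99 CPM in responder and 13.5 against 3.61 CPM in non-responder cells, with Cd4 at 11.4 CPM in non-responder positive cells. The part of such RNA in the results was not tested.

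In each library, every gene with at least 50 counts over both classes of each library was compared, 7968 genes without those of the gate. Ccl8-positive cells were past 1.5-fold higher for 390 genes (4.89%) and lower for 349 (4.38%) in the responder library, and higher for 736 (9.24%) and lower for 628 (7.88%) in the non-responder library, whose class was smaller. In both libraries, 105 genes (1.32%) were past 1.5-fold higher and 87 (1.09%) lower. For many of these genes the counting interval included 0 in at least 1 library. The median log2 ratio of all tested genes was 0.03 in responder and 0.05 in non-responder cells, and 57.2% of the genes had the same sign in both. Scaling by median-of-ratios size factors gave 76 higher and 111 lower genes in place of 105 and 87.

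**Figure D2:**
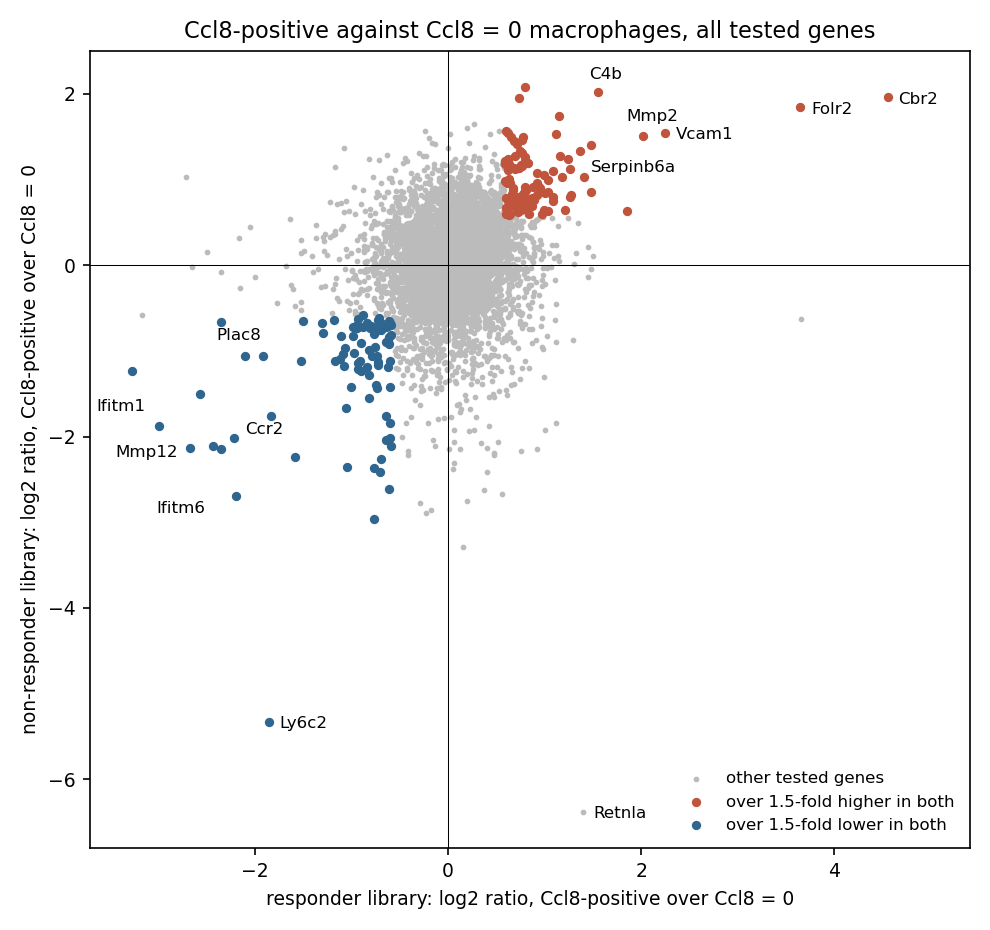
Log2 ratio of each tested gene, Ccl8-positive over Ccl8 = 0 macrophages, in the responder (horizontal axis) and the non-responder library (vertical axis). Coloured points are the genes past 1.5-fold in the same direction in both libraries, and a class with no count was set to 3 counts. Cbr2 stands at 4.56 and 1.96, Folr2 at 3.65 and 1.84, and Clec10a, which is not labelled, at 3.65 and -0.63. Ly6c2 stands lowest on the left side and Retnla alone at 1.40 and -6.38.

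Cbr2 and Folr2, genes of tissue-resident type macrophages, ranked first as higher by the log2 ratio nearer to 0 of the libraries. In the non-responder library alone, C4b had a larger ratio than either, at 2.03. Cbr2, a carbonyl reductase (GRCm38 chromosome 11, 120729489 to 120732114), was at 27.7 CPM in positive against 1.18 CPM in Ccl8 = 0 cells of the responder library, log2 ratio 4.56 [3.70 to 5.51]. In the non-responder library it was at 106 CPM in positive against 27.2 CPM in Ccl8 = 0 cells, log2 ratio 1.96 [1.63 to 2.28]. The Ccl8 = 0 cells of the non-responder library thus stood near the Ccl8-positive cells of the responder library. Folr2, folate receptor beta (chromosome 7, 101839988 to 101857194), was at 89.6 CPM in positive against 7.15 CPM in Ccl8 = 0 responder cells, log2 ratio 3.65 [3.27 to 4.03]. In non-responder cells it was at 215 against 59.9 CPM, log2 ratio 1.84 [1.61 to 2.07].

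Mrc1, the mannose receptor CD206 (chromosome 2, 14229392 to 14332057), was at 58.7 CPM in positive against 16.2 CPM in Ccl8 = 0 responder cells, log2 ratio 1.85 [1.52 to 2.19], and at 106 against 68.5 CPM in non-responder cells, log2 ratio 0.63 [0.32 to 0.93]. F13a1, the A chain of coagulation factor XIII, was at 33.3 CPM in positive against 13.8 CPM in Ccl8 = 0 responder cells and at 85.0 against 48.0 CPM in non-responder cells. Of the 20 genes on the resident-type list 12 were tested, with a median log2 ratio of 1.33 in responder and 0.44 in non-responder cells. Cbr2, Folr2, Mrc1 and F13a1 were past 1.5-fold higher in both libraries, beside 1.32% of all tested genes. None of the list was past 1.5-fold lower in both, beside 1.09%. Within the responder library 8 of the 12 were higher and 0 lower by that fold, beside 4.89% and 4.38% of all tested genes. Within the non-responder library 4 were higher and 2 lower, beside 9.24% and 7.88%. The 2 lower genes were the lectin gene Clec10a, at -0.63, and Retnla, at -6.38, which had responder ratios of 3.65 for Clec10a and 1.40 for Retnla. Without the positive cell that held most Mrc1, its non-responder log2 ratio was 0.55, under 1.5-fold. Ratios of smaller size were seen for the selenium carrier gene Sepp1 and the scavenger receptor gene Stab1. Their log2 ratios were 0.55 for Sepp1 and 0.37 for Stab1 in the responder library, and 0.49 for Sepp1 and 0.38 for Stab1 in the non-responder library.

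Some genes of the list were too sparse for the count minimum. Igf1, a growth factor, had 14 UMIs in the positive and 2 in the Ccl8 = 0 cells of the responder library, log2 ratio 5.29 [3.17 to 8.47]. Igf1 in the non-responder library was at 75.7 CPM in positive against 18.5 CPM in Ccl8 = 0 cells, log2 ratio 2.04 [1.64 to 2.42]. Gas6, a bridging ligand for dead cells, was at 11.3 CPM in positive against 0.925 CPM in Ccl8 = 0 responder cells, log2 ratio 3.61 [2.52 to 4.78], and at 42.5 against 17.4 CPM in non-responder cells, log2 ratio 1.29 [0.77 to 1.77]. Other genes came from single cells. All 36 Cd209f UMIs of the positive responder class lay in 1 cell, and its 24 Lyve1 UMIs in 2 cells. Timd4 and Vsig4, known from long-lived resident macrophages, had no UMI in Ccl8-positive cells of either library, and Cd163, a haemoglobin scavenger receptor gene, had 3 UMIs in responder and 2 in non-responder positive cells.

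The level of these genes was followed over the number of Ccl8 UMIs. In the responder library Folr2 was at 7.15, 16.3, 43.9 and 140.1 CPM in cells with 0, 1 to 2, 3 to 9 and 10 or more Ccl8 UMIs, and Cbr2 at 1.18, 2.04, 12.5 and 44.4 CPM. In the non-responder library Folr2 was at 59.9, 159.2, 242.7 and 151.6 CPM over the same classes, and Cbr2 at 27.2, 52.2, 143.8 and 20.2 CPM. The order was thus stepwise in the responder library, while Folr2 and Cbr2 were highest at 3 to 9 UMIs in the non-responder library, whose top class had only 20 cells. There the log2 ratio of Cbr2 against Ccl8 = 0 cells was -0.43. Vcam1 and C4b were highest in the top class of both libraries, Vcam1 at 69.1 CPM in responder and 144.9 CPM in non-responder cells. Median UMIs also moved over these classes, at 8943.5, 9785, 9418 and 10677 in responder and 11275.5, 11890, 12118 and 13819 in non-responder cells. So did the C1q share of UMIs, at 2.62, 2.70, 2.87 and 2.97% in responder and at 2.26, 2.43, 2.53 and 2.69% in non-responder cells. The part of depth was followed by weighting the Ccl8 = 0 cells to the depth of the positive cells, which gave 103 genes higher and 83 lower in both libraries. With the C1q minimum raised to 2% of UMIs, 71 genes were higher and 68 lower in both libraries.

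**Figure D3:**
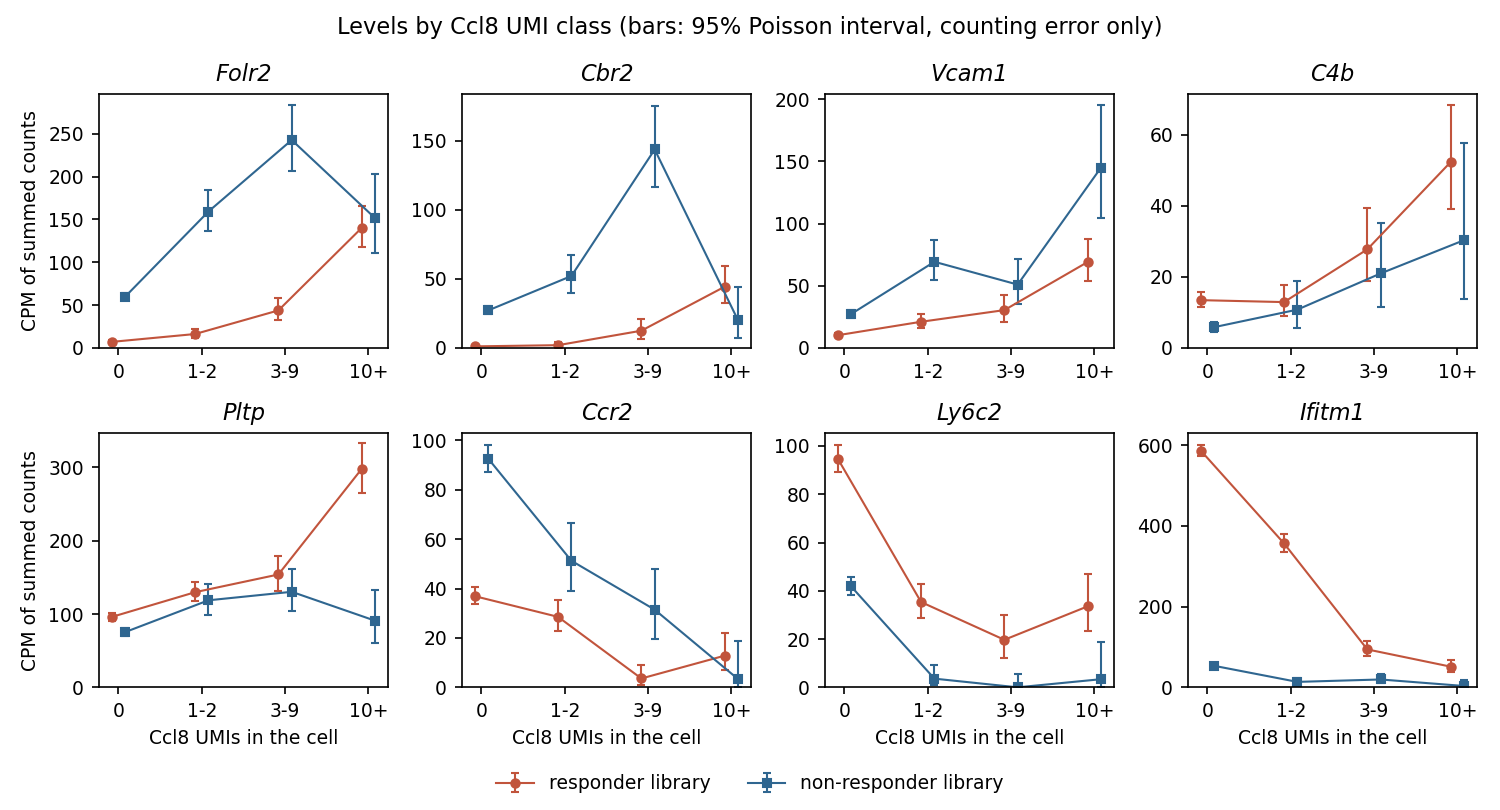
Level of 8 genes (CPM of counts summed over a class, vertical axes) by number of Ccl8 UMIs in the cell (horizontal axes), in the responder and the non-responder library, with 95% Poisson intervals. Folr2, Vcam1 and Pltp stand lowest, and Ccr2, Ly6c2 and Ifitm1 highest, at 0 UMIs in both libraries.

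Not every Ccl8-positive cell carried resident-type RNA. A UMI of Folr2, Cbr2 or Mrc1 was found in 89 of 212 positive cells of the responder library, 42.0% [35.3 to 48.9], against 15.5% [13.6 to 17.6] of its Ccl8 = 0 cells. In the non-responder library the shares were 88.0% [78.4 to 94.4], 66 of 75 cells, against 52.0% [49.0 to 55.0]. Folr2 by itself was seen in 22.6% of positive against 4.18% of Ccl8 = 0 cells of the responder library, and in 58.7% against 22.1% of those of the non-responder library. After thinning these shares were 10.5% against 1.78% in responder and 37.3% against 11.1% in non-responder cells. No T cell of either library had a Folr2, Cbr2 or Mrc1 UMI, which allows shares of up to 7.4% in responder and 6.06% in non-responder cells. A UMI of the monocyte genes Ccr2, Ly6c2 or Plac8 was found in 20.3% of positive against 34.3% of Ccl8 = 0 cells of the responder library, and in 18.7% against 41.8% of those of the non-responder library. Neither set was seen in 50.5% of positive against 54.5% of Ccl8 = 0 responder cells and in 8.0% against 26.3% of non-responder cells. By these genes the Ccl8-positive class was thus a mixture of cells, and a cell without a UMI of a sparse gene may still express it.

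Adhesion, matrix and secreted proteins were among the 15 genes ranked first. Vcam1, an adhesion molecule for leukocyte integrins (chromosome 3, 116109949 to 116129688), was at 48.8 CPM in positive against 10.3 CPM in Ccl8 = 0 responder cells, log2 ratio 2.25 [1.86 to 2.64]. In non-responder cells Vcam1 was at 79.9 against 27.3 CPM, log2 ratio 1.55 [1.17 to 1.91]. The gelatinase gene Mmp2 was at 9.86 CPM in positive against 2.44 CPM in Ccl8 = 0 responder cells and at 31.1 against 10.9 CPM in non-responder cells. Timp2 encodes an inhibitor of metalloproteinases that also takes part in the activation of the Mmp2 product. It was at 48.3 CPM in positive against 22.8 CPM in Ccl8 = 0 responder cells and at 111 against 51.9 CPM in non-responder cells. Wfdc17, a small secreted protein of macrophages, was the most abundant of the 15, at 562 CPM in positive against 211 CPM in Ccl8 = 0 responder cells, log2 ratio 1.41 [1.31 to 1.51]. In non-responder cells Wfdc17 was at 654 against 319.8 CPM, log2 ratio 1.03 [0.91 to 1.15].

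Protease inhibitors also belonged to those 15 genes. Serpinb6a, which blocks serine proteases, was at 91.5 CPM in positive against 35.5 CPM in Ccl8 = 0 responder cells, log2 ratio 1.37 [1.11 to 1.61], and at 155 against 61.4 CPM in non-responder cells, log2 ratio 1.33 [1.07 to 1.59]. Serpinb6a is not a gene of macrophages alone, since 29.2% of T cells had a UMI of it in the responder library and 37.3% in the non-responder library. Ctla2a, related to cathepsin propeptides, was at 20.2 CPM in positive against 8.41 CPM in Ccl8 = 0 responder cells and at 59.1 against 27.2 CPM in non-responder cells. The remaining genes of the 15 were the microtubule-binding Camsap2, the sulfotransferase Chst1, the recycling factor Rab11fip5, Dpy19l4, Wdr7 and the mitotic kinase Aurkb. In the responder library their log2 ratios were 1.48 for Camsap2, 1.16 for Chst1, 1.18 for Rab11fip5, 1.14 for Dpy19l4, 1.12 for Wdr7 and 1.24 for Aurkb. Non-responder ratios were 1.40 for Camsap2, 1.28 for Chst1, 1.04 for Rab11fip5, 1.74 for Dpy19l4, 1.54 for Wdr7 and 1.24 for Aurkb. All 6 were below 20 CPM in the positive responder cells. A single cell held 5 of the 11 Aurkb UMIs of non-responder positive cells, and without it the log2 ratio of Aurkb was 0.40, under 1.5-fold.

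Among complement genes C4b, a C4 chain of the classical pathway (chromosome 17, 34728380 to 34743882), had the largest ratio of those tested. It was at 39.4 CPM in positive against 13.5 CPM in Ccl8 = 0 responder cells, log2 ratio 1.55 [1.15 to 1.94], and at 23.9 against 5.86 CPM in non-responder cells, log2 ratio 2.03 [1.28 to 2.72]. C4b was the 1 of 9 tested complement genes past 1.5-fold higher in both libraries, beside 1.32% of all tested genes. C1q itself belonged to the gate. The median log2 ratio of the list was 0.12 in responder and -0.03 in non-responder cells. The properdin gene Cfp was at 0.15 in responder and -0.24 in non-responder cells.

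Genes of cholesterol handling had moderately higher levels. Nr1h3 was at 48.3 CPM in positive against 24.6 CPM in Ccl8 = 0 responder cells, log2 ratio 0.97 [0.63 to 1.30]. In non-responder cells it was at 17.6 against 11.6 CPM, log2 ratio 0.60 [-0.22 to 1.33], where the interval includes 0. Pltp, a phospholipid transfer protein, was at 222 CPM in positive against 96.1 CPM in Ccl8 = 0 responder cells, log2 ratio 1.21 [1.05 to 1.37], and at 118 against 75.4 CPM in non-responder cells, log2 ratio 0.65 [0.36 to 0.93]. Of 14 tested genes of the LXR and cholesterol list, 2 were past 1.5-fold higher in both libraries, beside 1.32% of all tested genes. These were Nr1h3 and Pltp, and none was lower in both. Without the positive cell richest in each, the non-responder log2 ratios were 0.44 for Nr1h3 and 0.55 for Pltp, under 1.5-fold. The list had a median of 0.48 with 10 of 14 genes above 0 in the responder library, and a median of 0.36 with 13 of 14 above 0 in the non-responder library. Of all tested genes, 55% were above 0 in responder and 56.4% in non-responder cells.

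Apoe, the most abundant gene of that list and a lipid carrier, was at 20139.6 CPM in positive against 13291 CPM in Ccl8 = 0 responder cells, log2 ratio 0.60 [0.58 to 0.62], and at 16059 against 12561 CPM in non-responder cells, log2 ratio 0.35 [0.33 to 0.38]. The efflux transporter genes Abca1 and Abcg1 had log2 ratios of 0.49 and 0.65 in the responder library, and 0.83 for Abca1 and 0.54 for Abcg1 in the non-responder library. Lpl, lipoprotein lipase, was at 1.45 [0.73 to 2.14] in responder and -0.14 [-0.92 to 0.55] in non-responder cells, where the interval includes 0.

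Lysosomal proteases of the lipid-associated list were on the same side. Ctsd, cathepsin D, was at 952 CPM in positive against 501 CPM in Ccl8 = 0 responder cells, log2 ratio 0.93 [0.85 to 1.0], and at 3063 against 1733 CPM in non-responder cells, log2 ratio 0.82 [0.77 to 0.88]. It was the 1 gene of 14 tested past 1.5-fold higher in both libraries, beside 1.32% of all tested genes. The medians of the list were 0.13 in responder and 0.20 in non-responder cells. Cathepsin B (Ctsb), the tetraspanin Cd63 and the fatty acid-binding protein Fabp5 had log2 ratios of 0.76 for Ctsb, 0.76 for Cd63 and 0.91 for Fabp5 in the responder library. Non-responder ratios were 0.35 for Ctsb, 0.51 for Cd63 and 0.53 for Fabp5. Trem2, a lipid receptor, was closer to 0, at 0.14 in responder and 0.30 in non-responder cells. Spp1, osteopontin, was below 0, at -0.58 [-0.91 to -0.28] in responder and -0.48 [-0.59 to -0.38] in non-responder cells. Fcrls, known from microglia, was at 0.95 in responder and 0.30 in non-responder cells.

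Genes of recently recruited monocytes were lower in Ccl8-positive cells. Ccr2, the receptor for Ccl2 (chromosome 9, 124101950 to 124113557), was at 7.98 CPM in positive against 36.9 CPM in Ccl8 = 0 responder cells, log2 ratio -2.21 [-3.0 to -1.51]. In non-responder cells Ccr2 was at 22.8 against 92.7 CPM, log2 ratio -2.02 [-2.70 to -1.42]. Ly6c2, the Ly6C antigen of monocytes (chromosome 15, 75108158 to 75111970), was at 26.3 CPM in positive against 94.7 CPM in Ccl8 = 0 responder cells, log2 ratio -1.85 [-2.26 to -1.46]. Non-responder positive cells had 1 Ly6c2 UMI, 1.04 against 41.8 CPM in Ccl8 = 0 cells, log2 ratio -5.33 [-10.64 to -2.85]. T cells also carried Ly6c2, which was seen in 52.1% of the T cells of the responder library and 44.1% of those of the non-responder library. Plac8, another gene counted here as a monocyte gene, was seen in 77.1% of responder and 50.8% of non-responder T cells. For Ccr2 these shares were 14.6% in responder and 11.9% in non-responder T cells.

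The 10 tested monocyte genes had a median log2 ratio of -1.31 in responder and -0.94 in non-responder cells. Of the 10, 6 were past 1.5-fold lower in both libraries, beside 1.09% of all tested genes, and none was higher. Beside Ccr2 and Ly6c2 these were Plac8, the calcium-binding S100a4 and S100a6, and the chitinase-like Chil3. In the responder library the log2 ratios were -2.10 for Plac8, -0.98 for S100a4, -1.30 for S100a6 and -1.83 for Chil3. In the non-responder library they were -1.07 for Plac8, -1.02 for S100a4 and -0.80 for S100a6. Chil3 had no UMI in non-responder positive cells, so that its log2 ratio of -1.76, against 3 counts, is an upper bound. A single cell held 20 of the 22 Plac8 UMIs of non-responder positive cells. Among cells with no Ccr2, Ly6c2 or Plac8 UMI, 6879 genes were tested. Ccl8-positive cells there had 72 genes past 1.5-fold higher and 61 lower in both libraries. Of these, 41 and 28 were among the 105 and 87, of which 60 and 43 could be tested there. Of the 15 genes ranked first each way, 8 higher and 7 lower ones were called there, where Ccr2 and Ly6c2 had no count. A cell without a UMI of these sparse genes may still express them.

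The genes of 2 interferon-induced membrane proteins were lower as well. Ifitm1 was at 73.7 CPM in positive against 587 CPM in Ccl8 = 0 responder cells, log2 ratio -2.99 [-3.23 to -2.77], and at 14.5 against 53.4 CPM in non-responder cells, log2 ratio -1.88 [-2.76 to -1.12]. In cells with 0, 1 to 2, 3 to 9 and 10 or more Ccl8 UMIs it was at 586.9, 356.8, 94.0 and 51.3 CPM in the responder library, and at 53.4, 13.5, 19.5 and 3.37 CPM in the non-responder library. Ifitm6 had log2 ratios of -2.20 [-3.85 to -0.94] in responder and -2.70 [-8.02 to -0.18] in non-responder cells. Mmp12, the macrophage elastase, was at 3.29 CPM in positive against 20.9 CPM in Ccl8 = 0 responder cells, log2 ratio -2.67 [-4.0 to -1.60], and at 17.6 against 77.6 CPM in non-responder cells, log2 ratio -2.14 [-2.92 to -1.45]. Cxcl13, a B cell chemokine that also ranked among the 15 lower genes, came from few cells. Its 85 responder UMIs lay in 1 Ccl8 = 0 cell, and 112 of its 114 UMIs in non-responder Ccl8 = 0 cells lay in 1 cell. Without that cell the non-responder log2 ratio of Cxcl13 was 3.69, with 2 UMIs in each class.

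The rest of the 15 genes ranked first as lower were Ltb4r1, a receptor of leukotriene B4, the glutaminyl cyclase Qpct, the interleukin 7 receptor Il7r, the dihydropyrimidinase Dpys, gephyrin (Gphn), Tc2n, Prpsap1 and the mitotic checkpoint gene Bub1b. In the responder library their log2 ratios ran from -3.27 for Gphn to -1.07 for Il7r, and in the non-responder library from -2.24 for Ltb4r1 to -1.09 for Prpsap1. The intervals of Ltb4r1, Dpys, Gphn, Prpsap1 and Bub1b include 0 in the non-responder library, and that of Bub1b does in the responder library. Of this group, Qpct, Il7r and Tc2n had intervals below 0 in both libraries. A single cell held 7 of the 9 Tc2n UMIs of non-responder positive cells, which the interval counts as independent. Without that cell the log2 ratio of Tc2n was -3.26, and with a limit of 10 Ccl8 UMIs it was 0.22.

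Interferon-induced genes were compared within a gate that had removed cells high in Cxcl9 and in several such genes. Of 17 tested genes of the interferon-gamma list, Il18bp and Serpina3g were past 1.5-fold higher in both libraries, beside 1.32% of all tested genes. In the non-responder library 6 of the 17 were past 1.5-fold higher, beside 9.24% of all tested genes. In the responder library 2 of the 17 were, beside 4.89%. Il18bp, a decoy of interleukin 18, was at 436 CPM in positive against 271 CPM in Ccl8 = 0 responder cells, log2 ratio 0.69 [0.58 to 0.79], and at 109 against 49.4 CPM in non-responder cells, log2 ratio 1.14 [0.83 to 1.44]. Serpina3g, a protease inhibitor, was at 189 CPM in positive against 114 CPM in Ccl8 = 0 responder cells, log2 ratio 0.73 [0.57 to 0.89], and at 28.0 against 7.22 CPM in non-responder cells, log2 ratio 1.95 [1.28 to 2.59]. The list's median was 0.05 in responder and 0.44 in non-responder cells. In the non-responder library the GTPase genes Irgm2, at 1.53 [0.68 to 2.30], Iigp1, at 1.21 [0.74 to 1.66], and Gbp2, at 1.07 [0.81 to 1.32], were past 1.5-fold higher, whereas they stood at 0.44 [-0.04 to 0.89], 0.04 [-0.15 to 0.23] and -0.02 [-0.12 to 0.08] in the responder library. That difference between the libraries was not tested. Of 22 tested type I interferon genes none was past 1.5-fold in both libraries, and the medians were 0.17 in responder and 0.23 in non-responder cells.

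Lists of antigen presentation, inflammation and glycolysis had medians slightly below 0. The 10 genes of MHC class II had a median of -0.17 in responder and -0.20 in non-responder cells. H2-Ab1, which encodes an MHC class II chain, stood at 13146 CPM in positive against 14089.7 CPM in Ccl8 = 0 responder cells and at 2257 against 2616 CPM in non-responder cells. H2-Ob was the 1 gene of that list past 1.5-fold lower in both libraries, beside 1.09% of all tested genes. Both intervals of H2-Ob included 0. The 12 inflammatory genes had a median of -0.15 in responder and -0.21 in non-responder cells. Of these 12, the cyclooxygenase gene Ptgs2 alone was past 1.5-fold lower in both, beside the same 1.09%. Ptgs2 was at -1.30 [-2.28 to -0.46] in responder and -0.67 [-2.33 to 0.60] in non-responder cells. Il1b, interleukin 1 beta, was at 415 CPM in positive against 615 CPM in Ccl8 = 0 responder cells and at 173 against 252 CPM in non-responder cells. Of 15 hypoxia and glycolysis genes none was past 1.5-fold in both libraries. Their median was -0.37 in responder and -0.09 in non-responder cells, and enolase 1 (Eno1) was at -0.63 [-0.74 to -0.52] in responder and -0.09 [-0.20 to 0.02] in non-responder cells.

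**Figure D4:**
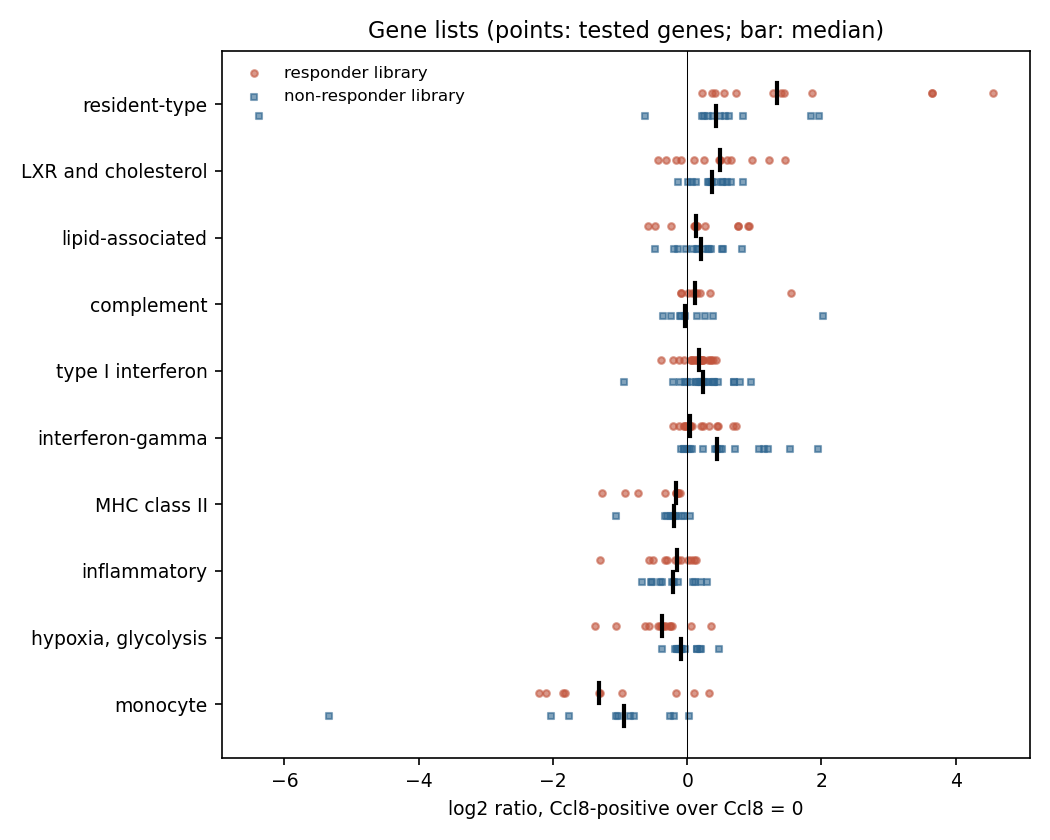
Log2 ratio, Ccl8-positive over Ccl8 = 0 macrophages (horizontal axis), of each tested gene of 10 lists (rows), with the responder library above the non-responder library in each row and a black bar at the median. The resident-type medians are 1.33 in responder and 0.44 in non-responder cells, and the monocyte medians -1.31 and -0.94.

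The chemokine genes next to Ccl8 differed less than 1.5-fold. On chromosome 11, Ccl8 (82115185 to 82116799) follows Ccl2 (82035571 to 82037453), Ccl7 (82045712 to 82047525) and Ccl12 (82101845 to 82103400) on the same strand. Ccl2 was at 629 CPM in positive against 649 CPM in Ccl8 = 0 responder cells, log2 ratio -0.04 [-0.13 to 0.04], and at 1173 against 1119 CPM in non-responder cells, log2 ratio 0.07 [-0.02 to 0.16]. Ccl7 was at 1089 CPM in positive against 768 CPM in Ccl8 = 0 responder cells, log2 ratio 0.50 [0.44 to 0.57], and at 945 against 789 CPM in non-responder cells, log2 ratio 0.26 [0.16 to 0.36]. Ccl12 was at 742 CPM in positive against 916 CPM in Ccl8 = 0 responder cells, log2 ratio -0.30 [-0.38 to -0.23], and at 2336 against 1941 CPM in non-responder cells, log2 ratio 0.27 [0.20 to 0.33]. All 3 were abundant in Ccl8 = 0 cells, unlike Folr2 and Cbr2. The longest run of bases that a Ccl8 transcript shared was 12 with Ccl2, 17 with Ccl7 and 13 with Ccl12.

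Cxcl13 and Ccr2 were the other chemokine and chemokine receptor genes past 1.5-fold in both libraries. Of 12 tested chemokine genes, Cxcl13 was past 1.5-fold lower in both libraries, beside 1.09% of all tested genes, and none was higher in both. Ccl6 was at 384 CPM in positive against 136 CPM in Ccl8 = 0 responder cells, but 197 of its 818 UMIs in the positive cells lay in 1 cell, and in non-responder cells its log2 ratio was 0.10 [-0.07 to 0.27]. Ccl5 was at 0.20 [0.15 to 0.25] in responder and -0.93 [-1.13 to -0.73] in non-responder cells. Ccr8, the receptor of mouse Ccl8, had at most 1 UMI in any class. Ccr1, a receptor of several CC chemokines, was past 1.5-fold in neither library. Of 5 tested receptor genes, Ccr2 was lower in both libraries, with the values given above, beside the same 1.09%. None was higher in both.

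Transcription factor genes had ratios near those of all genes. Of 23 tested, Nr1h3 was past 1.5-fold higher in both libraries, beside 1.32% of all tested genes. The medians were 0.21 in responder and 0.13 in non-responder cells. Maf, a factor of resident-type macrophages, was at 74.6 CPM in positive against 44.9 CPM in Ccl8 = 0 responder cells, log2 ratio 0.73 [0.47 to 0.99], and at 106 against 88.8 CPM in non-responder cells, log2 ratio 0.25 [-0.06 to 0.55]. Spi1, which encodes PU.1, was at 0.00 [-0.18 to 0.18] in responder and 0.22 [-0.19 to 0.61] in non-responder cells. Bhlhe40, a stress-responsive repressor gene, was at -0.35 [-1.02 to 0.26] in responder and -1.40 [-2.12 to -0.76] in non-responder cells. Of 9 tested efferocytosis genes none was past 1.5-fold in both libraries, with the receptor gene Mertk at 0.98 [0.60 to 1.35] in responder and 0.15 [-0.63 to 0.85] in non-responder cells. The lists of 6 tested nucleic acid clearance genes, 5 Fcγ receptor genes, 7 Ms4a genes and 13 immediate early genes had none past 1.5-fold in both libraries either, with list medians between 0.02 and 0.17 in responder and between -0.20 and 0.27 in non-responder cells.

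Over single cells of the gate, 1857 responder and 1251 non-responder cells, Folr2 was the gene whose log level was most like that of Ccl8, with a Pearson r of 0.31 in responder and 0.26 in non-responder cells. Wfdc17, Vcam1, Serpinb6a, Cbr2, Itm2b, Timp2, Ctsd, Sepp1 and C4b followed, with r between 0.15 and 0.27 in responder and between 0.15 and 0.22 in non-responder cells. These correlations are weak, the cells share a library and differ in depth, and the same cells had been divided into the classes.

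The same contrast was made in macrophages that the gate had left out. Among cells with 10 or more Cxcl9 UMIs and no Nos2 UMI, the responder library had 162 with 3 or more Ccl8 UMIs and 335 with none. Of the genes ranked first, 11 of 14 higher and 13 of 15 lower ones had the same direction there. Cbr2, with 2 UMIs in the Ccl8-positive and 1 in the Ccl8 = 0 cells, was not assessed. Folr2 was at 2.83 [1.89 to 3.88], Vcam1 at 1.78 [1.23 to 2.35] and Ccr2 at -1.56 [-2.24 to -0.94]. Of the genes in the other direction, Cxcl13, lower in the gate, was at 1.99 [1.34 to 2.67]. The non-responder library had only 4 such Ccl8-positive cells and was not compared. Among dividing macrophages, with a Mki67 or Top2a UMI, 68 Ccl8-positive cells stood against 330 Ccl8 = 0 cells in the responder library and 30 against 377 in the non-responder library. There 13 of 15 higher and 14 of 14 lower genes had the same direction in the responder library, and 12 of 15 and 10 of 14 in the non-responder library. Folr2 had log2 ratios of 3.19 [2.44 to 3.97] in responder and 2.09 [1.79 to 2.38] in non-responder dividing cells. Ifitm1 was at -2.37 [-2.72 to -2.04] in responder and 0.17 [-0.44 to 0.74] in non-responder dividing cells. For several of the ranked genes the counting interval in these left-out cells included 0. How many of all genes kept their direction there is not given, so the counts of same direction have no baseline. These cells were not in the gate by which the genes were ranked, but they came from the same 2 libraries.

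Within the Ccl8-positive class the libraries differed from each other. Of 4666 genes tested, 193 (4.14%) were past 2-fold higher and 151 (3.24%) lower in the responder library, beside 3.36% higher and 3.84% lower of 9355 genes tested in Ccl8 = 0 cells. Median-of-ratios scaling moved the median log2 ratio of all genes from -0.11 to 0.06 and gave 277 higher and 90 lower genes. Gbp2b, an interferon-induced GTPase, was at 82.1 CPM in responder against 1.04 CPM in non-responder positive cells, log2 ratio 6.31 [3.81 to 11.62]. Itgb7, an integrin chain, was at 39.4 CPM in responder against 1.04 CPM in non-responder positive cells, log2 ratio 5.25 [2.73 to 10.57]. The formyl peptide receptor genes Fpr2 and Fpr1 were at 36.6 and 32.4 CPM in responder positive cells, and both at 2.07 CPM in non-responder positive cells. Cd300e was at 62.4 CPM in responder positive cells against no UMI in non-responder positive cells, and its log2 ratio of 4.33, against 3 counts, is a lower bound. The lectin receptor gene Clec4b1 had a log2 ratio of 3.96, Sectm1a of 3.75 and Ly6c2 of 4.66 [2.13 to 9.99].

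These genes were also higher in the Ccl8 = 0 cells of the responder library. There the log2 ratios were 7.51 for Gbp2b, 3.53 for Itgb7, 3.93 for Dnase1l3, 2.73 for Fpr2, 2.0 for Fpr1, 3.81 for Cd300e, 1.97 for Clec4b1, 2.91 for Sectm1a and 1.18 for Ly6c2. Retnla, the remaining gene of the 10 ranked first, was the exception, at 3.92 in Ccl8-positive and -3.85 in Ccl8 = 0 cells.

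Matrix and sterol genes stood among those with less RNA in responder than in non-responder positive cells. Fn1, fibronectin, was at 11.3 CPM in responder against 254 CPM in non-responder positive cells, log2 ratio -4.50 [-5.17 to -3.89]. Spp1 was at 44.6 CPM in responder against 856 CPM in non-responder positive cells, log2 ratio -4.26 [-4.58 to -3.95]. Fdps and Cyp51 encode enzymes of sterol synthesis. Fdps was at 10.3 CPM in responder against 79.9 CPM in non-responder positive cells, and Cyp51 at 6.57 against 38.4 CPM. The others of the 10 were the transporter gene Slco2b1, at -4.70, Pmp22, at -3.96, Bhlhe41, at -3.53, Igf1, at -3.53, the leukotriene C4 synthase gene Ltc4s, at -3.08, and Gpr34, at -2.79. In Ccl8 = 0 cells all 10 were lower in the responder library too, with log2 ratios from -6.78 for Igf1 to -2.20 for Cyp51. These differences separate 2 libraries, and animal, tumour and response cannot be told apart.

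**Figure D5:**
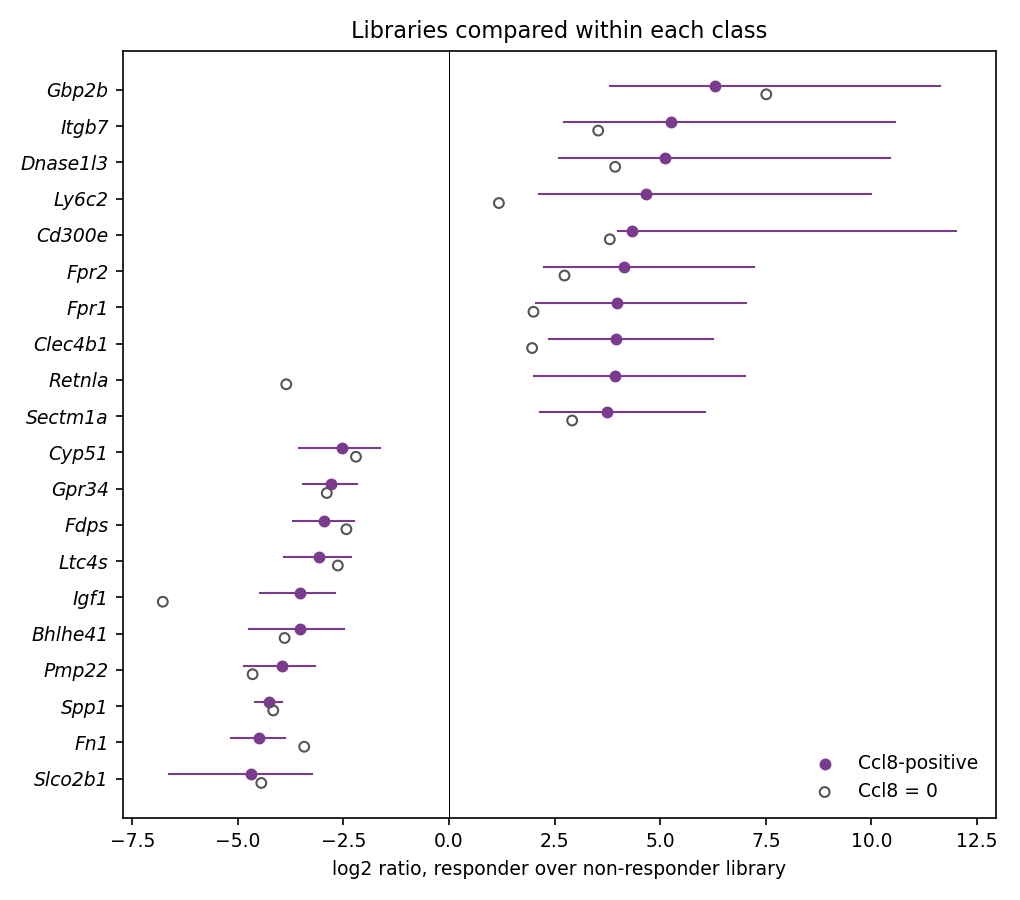
Log2 ratio, responder over non-responder library (horizontal axis), of the 10 highest and 10 lowest ranked genes in Ccl8-positive macrophages (filled, with 95% intervals for counting error, drawn up to 12) and the same ratio in Ccl8 = 0 macrophages (open). Cd300e is drawn at its bound of 4.33, and Retnla is the gene whose open point lies on the other side of 0.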

How the data were processed

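CD45+ cells of MC38-GFP tumours were profiled with 10x Chromium 3' v3 chemistry, per the labels' protocols, as 1 responder and 1 non-responder library. The UMI counts per gene and barcode were used as the authors deposited them, made with Cell Ranger 1.1.0 against mm10, per the submitters' processing notes. Neither the gene annotation nor the way cells were called is given in the sources used here. The files' 27998 gene IDs were summed to 27933 symbols, and 6 of the 352 list genes had no entry. The table of bulk RNA was not used.

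Python 3.11.15 with numpy 2.4.6, scipy 1.17.1, pandas 2.3.3 and matplotlib 3.10.9 was used. The gate, the classes and the gene lists were chosen with earlier results of these data known. Counts were summed over the cells of a class in each library and scaled to counts per 1e6 UMIs of that sum (CPM). A class with 0 counts was set to 3 counts. Genes needed 50 counts over both classes in each library. For the comparison of libraries they needed 50 counts over both libraries. With 1 library per response, and with classes set by a measured gene, no test was run: a gene was called past 1.5-fold in the same direction in both libraries, or past 2-fold between libraries. Brackets are 95% intervals, exact binomial for ratios and Clopper-Pearson for shares, and they cover counting error only.

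Genes were named by rank of the log2 ratio nearer to 0 of the libraries, 15 each way, and 10 each way between libraries. Gate genes, Ccl8, mitochondrial, ribosomal protein, Gm-number and Rik genes were left out of the rank. For likeness, the 10 highest Pearson correlations of log counts per 10000 were taken. T cells were cells with under 0.1% C1q and at least 3 Cd3 UMIs. Cells were thinned to 3000 UMIs, which left out 2 Ccl8-positive and 46 Ccl8 = 0 responder cells and 1 Ccl8 = 0 non-responder cell. Doublets were not called, and leaving out cells above the 95th percentile of UMIs was an alternative. Other alternatives changed the Ccl8 limit, the C1q and interferon limits, depth, scaling, the count minimum and the averaging. Those without monocyte-gene UMIs or shared barcodes were added after the data were seen. The computation was tested on simulated data. Gene coordinates are from GENCODE M21 on GRCm38, and promoters are from RefSeq on GRCm38.p6.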

Additional observations from a re-analysis of the deposited data

Results flagged for a closer look

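Retnla, which encodes the resistin-like protein RELMα of alternatively activated macrophages, had a log2 ratio of 1.40 in responder and -6.38 in non-responder cells, Ccl8-positive over Ccl8 = 0 cells. It was singled out because its ratio was past 1.5-fold in opposite directions with both counting intervals off 0. The RNA lay in few cells. Responder positive cells held 67 UMIs in 3 cells, 40 of them in 1 cell, against 142 UMIs in 9 Ccl8 = 0 cells, 134 of them in 1 cell. Non-responder positive cells held 2 UMIs in 2 cells, against 2153 UMIs in 33 Ccl8 = 0 cells, 1768 of them in 1 cell. Without the top Ccl8 = 0 cell the log2 ratio was 5.55 in responder and -3.90 in non-responder cells, and without the top positive cell 0.09 and -7.36. The difference between the libraries was not tested.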

How the results depend on the processing

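In place of 105 genes higher and 87 lower in Ccl8-positive cells of both libraries, a limit of 1 Ccl8 UMI gave 34 and 24, a count minimum of 10 gave 290 and 166, and no minimum with a pseudocount of 1 CPM gave 219 and 205. A limit of 10 UMIs gave 147 higher and 163 lower genes, and thinning to 3000 UMIs gave 67 higher and 71 lower genes. Of the 105 and 87, the limit of 1 UMI kept 23 and 18. The limit of 10 UMIs kept 38 and 31, of 92 and 87 still tested. Thinning kept 12 and 18, of 24 and 21 still tested. At 10 UMIs, 7 of the 15 genes ranked first as higher and 8 of the 15 as lower were still called. The other alternatives gave 71 to 132 higher and 61 to 111 lower genes, but not always the same genes. Of the 105 and 87, 48 and 34 were kept without the Cxcl9, Nos2 and interferon limits. With C1q at 2% 57 and 40 were kept, of 79 and 55 still tested, and with the mean over cells 83 and 63.

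The share of Ccl8-positive cells was 27.8% in responder and 13.2% in non-responder macrophages at 1 UMI, and 5.12% in responder and 1.60% in non-responder macrophages at 10 UMIs. The responder share was 14.8% without the Cxcl9, Nos2 and interferon limits and 16.7% with a thinned UMI. Between libraries, in place of 193 higher and 151 lower genes, thinning gave 103 and 68 and the minimum of 10 counts 622 and 671. There the limit of 10 UMIs gave 91 and median-of-ratios scaling 90 lower genes.

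Log2 ratios changed sign in the non-responder library for Clec10a (0.000606), Nr4a1 (0.0271) and Prpsap1 (0.0521) at 1 UMI. At 10 UMIs, with 20 positive cells, they did for Aurkb (-0.52), Cbr2 (-0.43), Ddx58 (-0.0938), Dnase1l3 (0.48), Tc2n (0.22) and Tlr7 (-0.45). After thinning, H2-Ob was at 0.77, Oas3 at -0.12 and Ptgs2 at 0.44 in the non-responder and Bub1b at 0.16 in the responder library. Plac8 was at 0.28 in the non-responder library with C1q at 2%. In the responder library Cxcl13 was at 1.13 without the Cxcl9, Nos2 and interferon limits and Chil3 at 1.19 in cells without monocyte-gene UMIs. The cause was not tested. No paired analysis was possible because each response had 1 library and the labels number no replicates.

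Depth limits the sparse genes: 75 non-responder positive cells held 964298 UMIs, where 3 counts correspond to 3.11 CPM. Animals, tumours and droplet runs cannot be told apart from response.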

Other observations

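A lectin receptor gene and a heat shock gene, both among the genes tested, were singled out after their values were seen. Clec10a, a galactose-type lectin of macrophages and dendritic cells, was at 16.9 CPM in positive against 1.35 CPM in Ccl8 = 0 responder cells, log2 ratio 3.65 [2.76 to 4.60]. Its 36 UMIs lay in 11 of the 212 positive cells, and without the cell that held most of them the log2 ratio was 3.24. Clec10a was at 3.11 CPM in positive against 4.81 CPM in Ccl8 = 0 non-responder cells, log2 ratio -0.63 [-2.95 to 0.99], with 3 UMIs in the positive cells. Hspa1a, an inducible chaperone of the Hsp70 family, was at 483 CPM in positive against 398 CPM in Ccl8 = 0 responder cells, log2 ratio 0.28 [0.18 to 0.38]. In non-responder cells Hspa1a was at 149 against 435 CPM, log2 ratio -1.54 [-1.79 to -1.30]. The difference between the libraries was not tested for either gene.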
